A study of Mus musculus with 12 samples.

Results

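The genes described here encode enzymes that modify RNA, or their subunits: stand-alone pseudouridine synthases, RNA methyltransferases, the acetyltransferase Nat10, RNA demethylases and adenosine deaminases. They were 37 genes chosen by name, with earlier results of these data known. Each of the 37 symbols matched 1 row of the 55385 genes in the C2C12 count table. C2C12 is an established mouse myoblast line whose cells leave the cell cycle and fuse into multinucleate myotubes when they differentiate. Total RNA was sequenced from 3 samples of undifferentiated myoblasts and from 3 samples differentiated into myotubes for 7 days, with a stranded, ribosomal RNA-depleting kit. No genotype or further agent is given for either group. Whether the 3 samples of a group were grown as separate cultures is not stated, and the p-values therefore reflect sample-to-sample spread that may be technical. The other 6 libraries of the series, small RNA from E14TG2a embryonic stem cells without and with retinoic acid, hold no member and were not used here.

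Pseudouridine synthases turn uridine into its rotated isomer pseudouridine. In ribosomal RNA most pseudouridines are placed by dyskerin with a box H/ACA guide RNA, whereas the stand-alone enzymes recognise transfer RNAs, messenger RNAs and mitochondrial RNAs by themselves. Other enzymes methylate, acetylate or deaminate bases of ribosomal, transfer and messenger RNA during their maturation, and N6-methyladenosine (m6A) in messenger RNA is placed by a writer complex around Mettl3 and removed by the erasers Fto and Alkbh5.

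Library totals ranged from 18335785 to 54083215 counts. Of the 37 genes, 36 passed the filter on low counts, with 54 to 12544 counts in each library. All 7 myotube markers rose, 1 of 4 general myogenic markers rose and 1 fell, and all 7 proliferation markers fell (edgeR, adjusted p under 0.05). The summed level of the proliferation markers was 2789 to 2882 CPM (the count scaled to its library's TMM-adjusted total) in myoblasts against 220.5 to 972 CPM in myotubes. Myotube replicate 1 stood apart, with the highest proliferation sum (972 against 271 and 220.5 CPM) and the lowest myotube marker sum (3607 against 8091 and 7395 CPM). It was also the lowest myotube library for 26 of the 36 enzymes, and myoblast replicate 3 was the highest myoblast library for 26 of them. These counts cover the enzymes alone and not all tested genes. Of 16 markers of macrophages, endothelium, fat and epithelium, Adipoq and Cfd were at 0 in every library. The endothelial sum was 0.516 to 0.755 CPM in myoblasts and 0.290 to 0.717 CPM in myotubes, and the macrophage sum 1.97 to 2.71 and 1.499 to 2.49 CPM. The fat cell sum was 20.2 to 23.5 CPM in myoblasts and 6.19 to 10.2 CPM in myotubes, nearly all of it Pparg. The epithelial sum was 5.35 to 12.7 and 2.40 to 6.43 CPM, mostly Krt14 and Cdh1. Within these sums genes moved in opposite directions: Krt14 fell from 8.94 to 2.20 CPM (adjusted p = 0.0164) while Cdh1 rose from 0.611 to 2.86 CPM (adjusted p = 0.00756). The macrophage marker Csf1r rose from 0.130 to 0.648 CPM (adjusted p = 0.0359) while Cd68, most of that sum, was not called. The part of proliferation or of these markers in the changes below was not tested.

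Most of these enzyme genes were lower in myotubes. Of the 36 tested, 21 fell, 2 rose and 13 were not called (edgeR quasi-likelihood test, Benjamini-Hochberg adjusted p under 0.05), while 19.6% of all tested genes were called lower, 20.5% higher and 40.1% in either direction. The largest fall among them was that of Nop2, to 29.9% of its myoblast level, and the genes that rose were the m6A eraser Fto and the mitochondrial rRNA methyltransferase Nsun4. Every library of one group lay below every library of the other for 27 members lower in myotubes, against 27.2% of all tested genes. The reverse held for 3 members higher in myotubes, against 28.7% (55.9% in either direction). The median log2 fold change of the 36 was -0.79, beside 0.06 over all 15932 tested genes. Since the list was chosen with earlier results of these data known, these shares describe it and are no test of it. The summed level of the 37 was 1728 ± 225 CPM in myoblasts and 1169 ± 101 CPM in myotubes (SD, n = 3). In bulk RNA, fewer cells of a type and less RNA per cell cannot be told apart.

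The number of falls depended on single libraries. It was 12 without myoblast replicate 2, 9 without myoblast replicate 3 and 13 without myotube replicate 3, with 12.9%, 13.1% and 13.1% of all tested genes called lower in those fits. Fto and Nsun4 rose in each of these, and 9 falls held in all 12 other settings tried: Pus1, Rpusd4, Nsun5, Emg1, Nat10, Dimt1, Nsun2, Mettl1 and Mettl14.

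**Figure D1:**
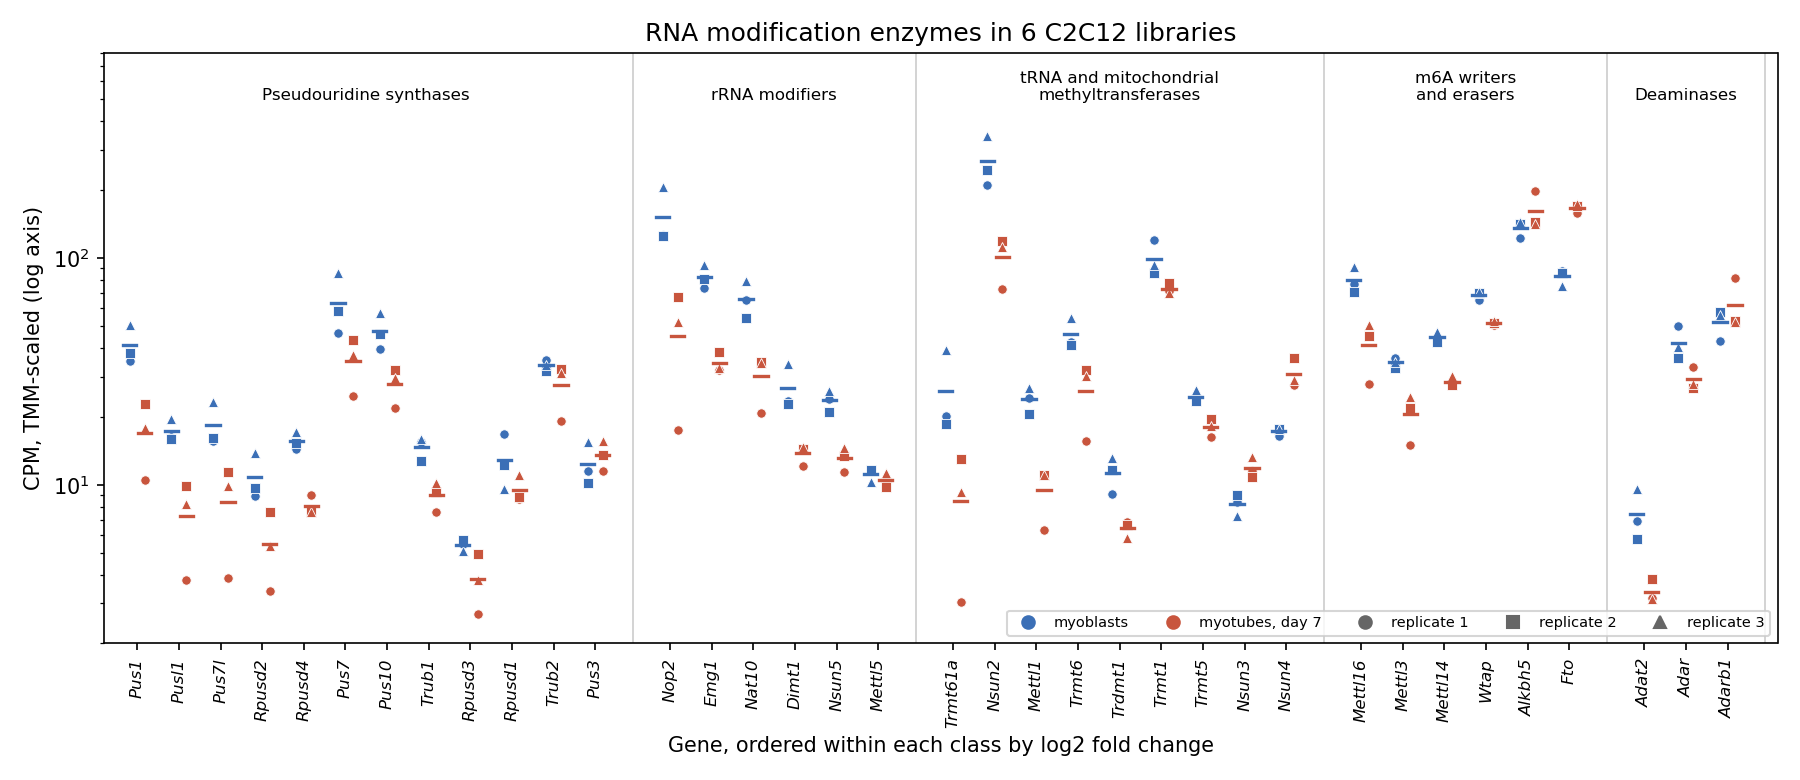
Level in CPM after TMM scaling (log axis) of the 36 tested enzyme genes, grouped by class; each point is 1 library (blue, myoblasts; red, myotubes at day 7; the marker shape gives the replicate) and each bar a group mean. Red points lie below blue ones for most genes, above them for Fto, Nsun4 and Nsun3, and the red circles (myotube replicate 1) are often the lowest.

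**Figure D2:**
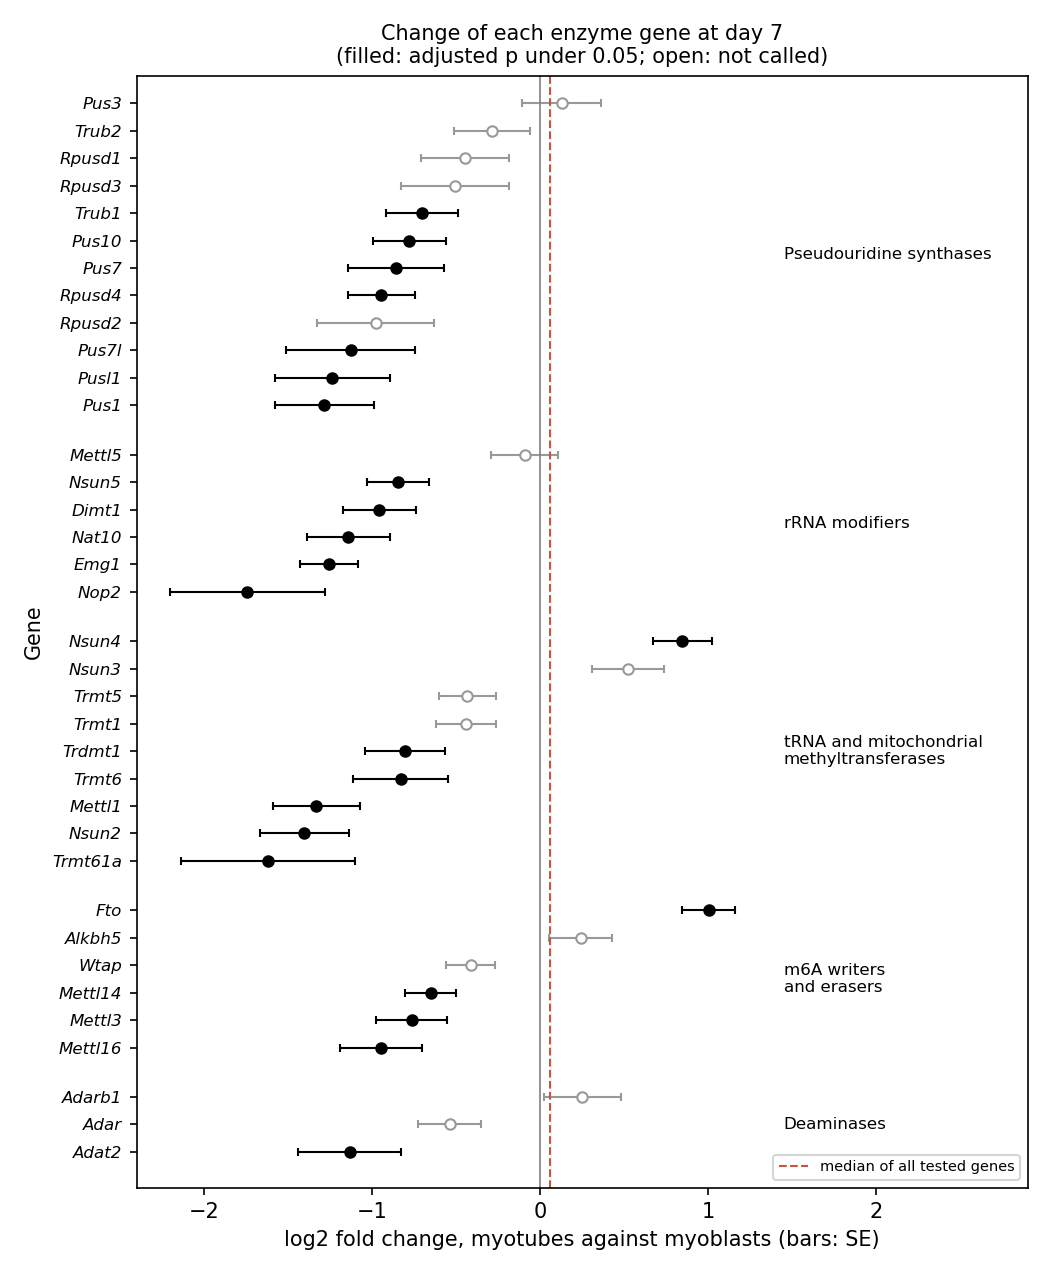
Log2 fold change of each tested enzyme gene in myotubes against myoblasts, with its standard error (SE); filled points have an adjusted p under 0.05 and the dashed line is the median of all tested genes, 0.06. The 21 filled points on the left reach from -0.65 (Mettl14) to -1.74 (Nop2), and those on the right are Nsun4 and Fto.

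Promoter sequences were compared because so many of the genes fell together. RefSeq promoter windows on GRCm38.p6, from 250 bases before to 50 bases after the transcription start, were found for 33 of the 37 genes; those without one were Nsun5, Trmt1, Trmt6 and Mettl14. The palindromic E-box CACGTG, a sequence that basic helix-loop-helix factors of the Myc and Usf families bind, lay in the window of 7 of the 18 genes that fell and had one (38.9%). It was found for 11.6% of all tested genes with a window, for 13.1% of all tested genes called lower, and for 1 of the 12 members not called (8.33%), Pus3. Neither Fto nor Nsun4 held it. These shares rest on the calls of the main fit. Rpusd2, not called and without the E-box, was called lower in some other settings. Of the 7 genes, Pus1, Rpusd4 and Mettl1 kept their call in all 12 other settings, while Nop2, Pus7, Pusl1 and Trmt61a lost it in some. The windows around the sites of these 7 genes read as follows, 5′ to 3′ on the gene's strand, with the E-box in capitals.
Nop2, chr6:125131811-125131840, plus strand: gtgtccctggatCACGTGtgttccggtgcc
Rpusd4, chr9:35267796-35267825, plus strand: CACGTGacccgtaggctacctgccCACGTG
Pus1, chr5:110780576-110780605, minus strand: tccgccttcgtgCACGTGgtcagcttcggg
Pus7, chr5:23783666-23783695, minus strand: ggcgcagcgccgCACGTGtgcgagcccggc
Pusl1, chr4:155891718-155891747, minus strand: tcgaccgcgggcCACGTGcaagcgccccgc
Mettl1, chr10:127041950-127041979, plus strand: agctcggctctcCACGTGgactgcgtggca
Trmt61a, chr12:111678118-111678147, plus strand: ccgccgtggagcCACGTGtggagccgggag
With the first transcribed base counted as 0, the Nop2 site began at -60 and the 2 sites of Rpusd4 at -85 and -61. The others began just after the start, at 28 in Pus7, 27 in Pusl1, 30 in Mettl1, 25 in Trmt61a and, from its 2 annotated starts, at 3 or 22 in Pus1. Pus7 has another annotated start as well, and the window of that start held no E-box. Both strands were searched, and no E-box overlapped a match of the other motifs. The ETS motif CCGGAAGT was in the windows of 4 of the 18 (22.2%) and of 2 of the 12 members not called (16.7%), against 8.88% of tested genes and 10.4% of those called lower, and the GC-box GGGCGG in 9 of the 18 (50.0%) and 7 of the 12 (58.3%), against 67.7% and 71.4%. These matches describe letters in a window, and binding was not measured.

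Enzymes that modify cytosolic ribosomal RNA fell in 5 of 6 cases (83.3%), with a median log2 fold change of -1.05. Of all tested genes 19.6% were called lower. Nop2 (ENSMUSG00000038279.10, chr6:125131883-125144753, like all gene spans here from RefSeq on GRCm38.p6), a large-subunit rRNA cytosine methyltransferase also needed for subunit assembly, stood at 126, 125 and 205 CPM in the myoblast libraries and at 17.5, 67.0 and 51.9 CPM in the myotube libraries. All myotube values lay below all myoblast values, and myotube replicate 1 was lowest. The log2 fold change was -1.74 ± 0.46 (SE, adjusted p = 0.0190), and the call was lost without myoblast replicate 3 (adjusted p = 0.0649) and with no filter on low counts (adjusted p = 0.107).

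Emg1 (ENSMUSG00000004268.11, chr6:124704370-124712186) methylates a pseudouridine of the small-subunit rRNA. It was at 73.8, 81.1 and 92.8 CPM in myoblasts and at 32.2, 38.6 and 32.8 CPM in myotubes, with close replicates and no overlap, a log2 fold change of -1.26 ± 0.17 (adjusted p = 0.00110). Nat10, which acetylates cytidines of small-subunit rRNA and of some transfer RNAs, went from 65.2, 54.6 and 78.8 CPM to 20.8, 34.6 and 34.6 CPM (log2 fold change -1.14 ± 0.25, adjusted p = 0.00802). Dimt1, the small-subunit rRNA adenosine dimethyltransferase, fell to 51.5% of its myoblast level (log2 fold change -0.96 ± 0.22, adjusted p = 0.00998). Nsun5, another large-subunit cytosine methyltransferase, fell to 55.7% (-0.84 ± 0.19, adjusted p = 0.00884). Mettl5, which places a single m6A in small-subunit rRNA, had overlapping libraries, at 11.2 ± 0.757 CPM in myoblasts and 10.5 ± 0.763 CPM in myotubes (SD, n = 3), and the fit made no call (log2 fold change -0.09 ± 0.20, adjusted p = 0.731).

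Of the 12 stand-alone pseudouridine synthases, 7 fell (58.3%) and none rose, with log2 fold changes from -1.28 to 0.13. Beside these, 19.6% of all tested genes were called lower and 20.5% higher. Pus1 (ENSMUSG00000029507.16, chr5:110773667-110780649), which acts on cytosolic and mitochondrial transfer RNAs and on messenger RNAs, was at 35.3, 38.1 and 50.8 CPM in myoblasts and at 10.5, 22.7 and 17.7 CPM in myotubes. Its log2 fold change of -1.28 ± 0.30 (adjusted p = 0.0104) was called in all 12 other settings. So was that of Rpusd4, a mitochondrial synthase that acts on the large mitochondrial rRNA, which went from 14.3, 15.3 and 17.0 CPM to 9.01, 7.63 and 7.59 CPM (-0.94 ± 0.20, adjusted p = 0.00751). Replicates of Rpusd4 were close and myotube replicate 1 was the highest of its group, unlike for Pus1.

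Pus7, which acts on transfer and messenger RNAs, was at 46.6, 58.4 and 85.5 CPM in myoblasts and at 24.7, 43.3 and 37.3 CPM in myotubes (log2 fold change -0.86 ± 0.29, adjusted p = 0.0441). The gap between the groups was narrow, from 43.3 CPM in the highest myotube library to 46.6 CPM in the lowest myoblast library. Its relative Pus7l fell by 1.13 on the log2 scale (SE 0.39, adjusted p = 0.0478) and Pusl1 by 1.24 (SE 0.34, adjusted p = 0.0217). Pus10, a synthase of transfer RNAs, fell by 0.78 (SE 0.22, adjusted p = 0.0226). Trub1, which modifies the T-loop of transfer RNAs, fell by 0.70 (SE 0.22, adjusted p = 0.0325). These 5 calls were weak. Pus7 was lost without myoblast replicate 2 or 3 or myotube replicate 1 or 3 (adjusted p = 0.0858, 0.148, 0.0648 and 0.0905) and under a minimum mean count of 50 (0.0549). Pus7l was lost without any 1 myoblast library or myotube replicate 3 (adjusted p = 0.0663, 0.0873, 0.146 and 0.0786) and under that same minimum (0.0603). Pus10 was lost without myoblast replicate 2 or 3 or myotube replicate 3 (adjusted p = 0.0610, 0.0787 and 0.0570), and Pusl1 without myoblast replicate 2 or 3 (0.0536 and 0.0690). Trub1 was lost with no filter on low counts (adjusted p = 0.0581) and in every fit with a library left out (0.0541 to 0.0970) except the one without myotube replicate 1.

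The other 5 synthases were not called. Rpusd2 was at 8.89, 9.67 and 13.9 CPM in myoblasts and at 3.40, 7.63 and 5.39 CPM in myotubes, without overlap (log2 fold change -0.98 ± 0.35, adjusted p = 0.0539). It was called lower with the replicate number as a block (adjusted p = 0.0335), with DESeq2 (0.0259), with library size alone (0.0357), with no filter (0.0289) and without myotube replicate 2 (0.0294). Rpusd3 and Trub2, both mitochondrial, had log2 fold changes of -0.51 ± 0.32 and -0.29 ± 0.22 (adjusted p = 0.235 and 0.332), and Rpusd1 one of -0.44 ± 0.26 (adjusted p = 0.204). Pus3, which modifies the anticodon stem-loop of transfer RNAs, stood at 12.4 ± 2.73 CPM in myoblasts and 13.5 ± 2.02 CPM in myotubes (SD, n = 3), with overlapping libraries (log2 fold change 0.13 ± 0.23, adjusted p = 0.678; -0.0061 without myoblast replicate 2). Hyls1 overlaps 6581 of the 8842 bases of the Pus3 span. It stood at 19.9 to 24.3 CPM in myoblasts and 6.94 to 15.7 CPM in myotubes. Any effect of this overlap on the Pus3 counts was not tested.

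Of 9 methyltransferases of transfer RNA and of mitochondrial RNA, 5 were called lower (55.6%), 1 higher (11.1%) and 3 were not called. The shares of all tested genes were 19.6% lower and 20.5% higher. Nsun2 (ENSMUSG00000021595.18, chr13:69612016-69635780), the main cytosine methyltransferase of cytosolic transfer RNAs, was at 210, 245 and 346 CPM in myoblasts and at 73.1, 118 and 111 CPM in myotubes. That is 37.8% of the myoblast level (log2 fold change -1.40 ± 0.26, adjusted p = 0.00444). Mettl1, the catalytic subunit of the transfer RNA N7-guanosine methyltransferase, went from 24.2, 20.6 and 26.7 CPM to 6.30, 11.1 and 11.1 CPM (-1.33 ± 0.26, adjusted p = 0.00522).

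The subunits of the transfer RNA N1-adenosine methyltransferase both fell. Trmt61a, its catalytic subunit, was at 20.02, 18.6 and 39.5 CPM in myoblasts and at 3.05, 13.04 and 9.27 CPM in myotubes, with the largest SE of the 36 genes (log2 fold change -1.62 ± 0.52, adjusted p = 0.0390). Its partner Trmt6 went from 46.1 ± 7.04 to 25.9 ± 9.00 CPM (SD, n = 3; -0.83 ± 0.28, adjusted p = 0.0458). Trdmt1, which methylates a cytosine in the anticodon loop of a few transfer RNAs, went from 11.3 ± 2.02 to 6.45 ± 0.524 CPM (-0.80 ± 0.24, adjusted p = 0.0290). Without any 1 myoblast library or without myotube replicate 3 the calls of Trmt61a (adjusted p = 0.0513 to 0.132) and Trmt6 (0.0690 to 0.134) were lost, as were that of Trmt61a with no filter (0.153) and that of Trmt6 under the minimum mean count (0.0597). Trdmt1 was lost without myoblast replicate 2 or 3 or myotube replicate 2 or 3 (adjusted p = 0.0649 to 0.101).

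Nsun4 (ENSMUSG00000028706.14, chr4:116033002-116053879), which methylates the small mitochondrial rRNA and takes part in mitochondrial ribosome assembly, was at 16.4, 17.6 and 17.6 CPM in myoblasts and at 27.7, 36.1 and 29.1 CPM in myotubes. Each myotube library lay above each myoblast library, 179.9% of the myoblast level in the fit (log2 fold change 0.85 ± 0.18, adjusted p = 0.00674). Nsun3, the methyltransferase of mitochondrial methionine transfer RNA, also had no overlap, at 8.41, 8.99 and 7.31 CPM against 11.5, 10.8 and 13.3 CPM, but was not called (0.52 ± 0.21, adjusted p = 0.0835). Trmt1 and Trmt5, guanosine methyltransferases of transfer RNA, were not called either, with log2 fold changes of -0.44 ± 0.18 (adjusted p = 0.0808) and -0.43 ± 0.17 (adjusted p = 0.0724; 0.0418 with library size alone).

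Of the 4 m6A writer genes, Mettl3, Mettl14 and Mettl16 fell and Wtap was not called, while of the 2 erasers Fto rose and Alkbh5 was not called. Writers and erasers together were 50% lower and 16.7% higher by call, beside 19.6% and 20.5% of all tested genes. Mettl3, the catalytic subunit of the writer complex, was at 36.4, 32.7 and 34.9 CPM in myoblasts and at 14.9, 21.9 and 24.5 CPM in myotubes (log2 fold change -0.76 ± 0.21, adjusted p = 0.0223). Mettl14, its RNA-binding partner, went from 44.2, 42.6 and 47.4 CPM to 27.8, 27.5 and 30.3 CPM (-0.65 ± 0.15, adjusted p = 0.0114). Mettl16, a separate m6A methyltransferase, went from 76.6, 70.8 and 91.5 CPM to 27.7, 45.5 and 50.7 CPM (-0.95 ± 0.25, adjusted p = 0.0170). In none of these did the groups overlap. Mettl3 lost its call without myoblast replicate 2 or 3 (adjusted p = 0.0539 and 0.0581) and Mettl16 without myoblast replicate 3 (0.0588). Wtap, the adaptor of the writer complex, went from 68.9 ± 2.96 to 51.8 ± 1.22 CPM (SD, n = 3) without overlap and was not called (-0.41 ± 0.15, adjusted p = 0.0538), but was with library size alone (0.0257) and without myoblast replicate 1 (0.0498).

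Fto (ENSMUSG00000055932.15, chr8:91313367-91668433) was at 87.3, 86.2 and 75.4 CPM in myoblasts and at 157, 169 and 173 CPM in myotubes. Replicates were close, the groups were far apart, and the fitted myotube level was 200.4% of that in myoblasts (log2 fold change 1.003 ± 0.16, adjusted p = 0.00192). Alkbh5, the other eraser, was at 123, 141 and 144 CPM in myoblasts and at 197, 144 and 142 CPM in myotubes, with overlap and only myotube replicate 1 above the rest (0.24 ± 0.19, adjusted p = 0.333).

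Among the adenosine deaminases, Adat2, the catalytic subunit that makes inosine at the wobble base of transfer RNAs, fell from 6.93, 5.77 and 9.61 CPM to 3.17, 3.85 and 3.13 CPM (log2 fold change -1.13 ± 0.31, adjusted p = 0.0200), a call lost without myoblast replicate 3 or myotube replicate 3 (0.0768 and 0.0724). Adar, the broadly expressed editor of double-stranded RNA, was at 50.2, 36.3 and 40.6 CPM in myoblasts and at 33.0, 26.8 and 27.7 CPM in myotubes, without overlap and just outside the threshold (-0.54 ± 0.19, adjusted p = 0.0505). It was called lower with the replicate number as a block (adjusted p = 0.0364), with DESeq2 (0.0423), with RLE scaling (0.0447), with library size alone (0.0311) and without myotube replicate 1 (0.0243). Adarb1, the second catalytically active editor, was at 43.1, 57.7 and 55.8 CPM in myoblasts and at 81.5, 52.7 and 52.2 CPM in myotubes, with overlap (0.25 ± 0.23, adjusted p = 0.4001), and without myotube replicate 1 its log2 fold change was -0.013. Adat3, the partner of Adat2, had 1 count in myoblasts and 1 in myotubes over all libraries and was not tested. Its RefSeq span lies within that of Scamp4 over 4773 of 4775 bases, and Scamp4 itself was at 0.387 to 0.828 CPM, so the level of Adat3 is uncertain. In all, 20 of the 37 genes overlap another RefSeq gene, and whether strand was used in counting is not given in the sources used here.

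**Figure D3:**
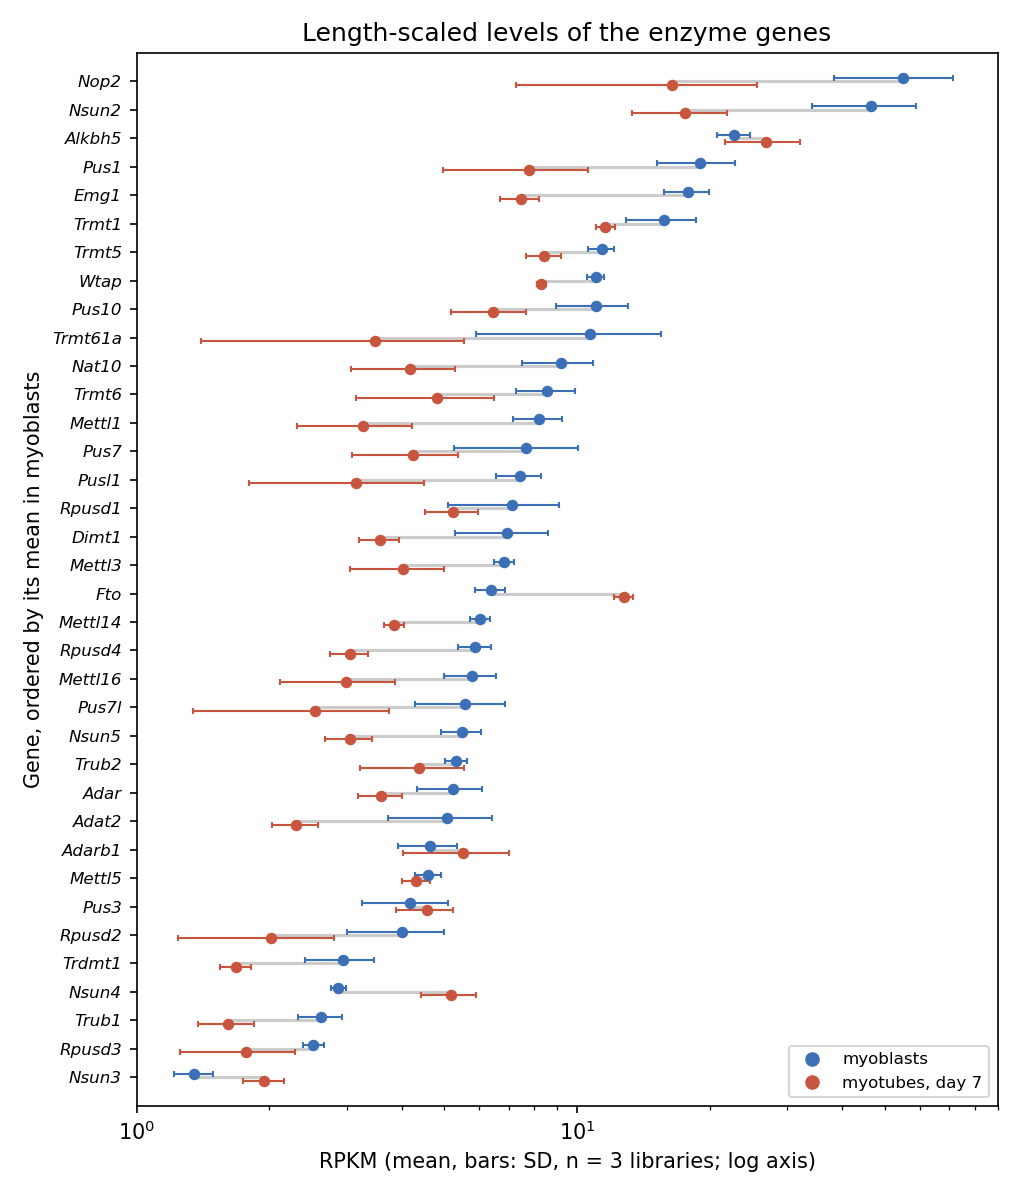
Level per length (RPKM, log axis) of the 36 tested enzyme genes in myoblasts (blue) and myotubes (red), as mean ± SD of 3 libraries each, ordered by the myoblast mean. Nop2 and Nsun2 lead in myoblasts, Alkbh5, Nsun2 and Nop2 in myotubes, and Fto and Nsun4 move up the order.

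Levels per length, in CPM per kilobase (RPKM), changed their order. In myoblasts Nop2 (54.8 ± 16.5) and Nsun2 (46.5 ± 12.3) were the highest and overlapped within their SD, ahead of Alkbh5 (22.7 ± 1.94), Pus1 (19.0 ± 3.79) and Emg1 (17.8 ± 2.07), the last 3 again without a clear gap between neighbours. In myotubes the mean was highest for Alkbh5 (26.9 ± 5.204), followed by Nsun2 (17.6 ± 4.25), Nop2 (16.4 ± 9.15) and Fto (12.8 ± 0.617) (SD, n = 3). Nop2 did not differ from Nsun2 or Fto beyond its spread. Alkbh5 stood at 32.9, 24.0 and 23.7 RPKM in the myotube libraries, and in replicate 2 Nop2 was above it at 24.2 RPKM. Alkbh5 and Nsun2 also overlapped within their SD. Fto went from rank 19 to rank 4 and Nsun4 from rank 33 to rank 13, while Trmt61a went from rank 10 to rank 24. Moves of this size were not limited to called genes: Adarb1 went from rank 28 to rank 11 and Pus3 from rank 30 to rank 15, both with overlapping libraries. The lowest tested member was Nsun3 in myoblasts (1.35 ± 0.139 RPKM) and Trub1 in myotubes (1.62 ± 0.234 RPKM).

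Ratios within a library, which do not depend on scaling between libraries, were tested for 4 pairs of related genes with a two-sided exact permutation test, where 3 samples against 3 cannot give a p below 0.1. The length-scaled ratio of Mettl14 to Mettl3 was 0.832, 0.892 and 0.929 in myoblasts and 1.27, 0.862 and 0.846 in myotubes, overlapping and near parity (exact p = 0.8). The ratio of Trmt61a to Trmt6 was 1.03, 0.996 and 1.61 in myoblasts and 0.433, 0.898 and 0.682 in myotubes, a lower range without overlap. That of Alkbh5 to Fto was 3.06, 3.57 and 4.16 against 2.72, 1.86 and 1.78, also lower without overlap. That of Adarb1 to Adar was 0.619, 1.15 and 0.991 against 1.78, 1.41 and 1.36, higher without overlap. For each of these 3 pairs the exact p was 0.1, the smallest possible, and 0.133 adjusted over the 4 pairs, so none passed. A pair chosen after the values were seen, and so not tested, was that of Fto to Mettl3: the ratio was 0.935, 1.03 and 0.842 in myoblasts and 4.11, 3.01 and 2.75 in myotubes. Nsun4 to Nsun2, chosen in the same way, was 0.0750, 0.0686 and 0.0488 in myoblasts and 0.362, 0.292 and 0.250 in myotubes.

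**Figure D4:**
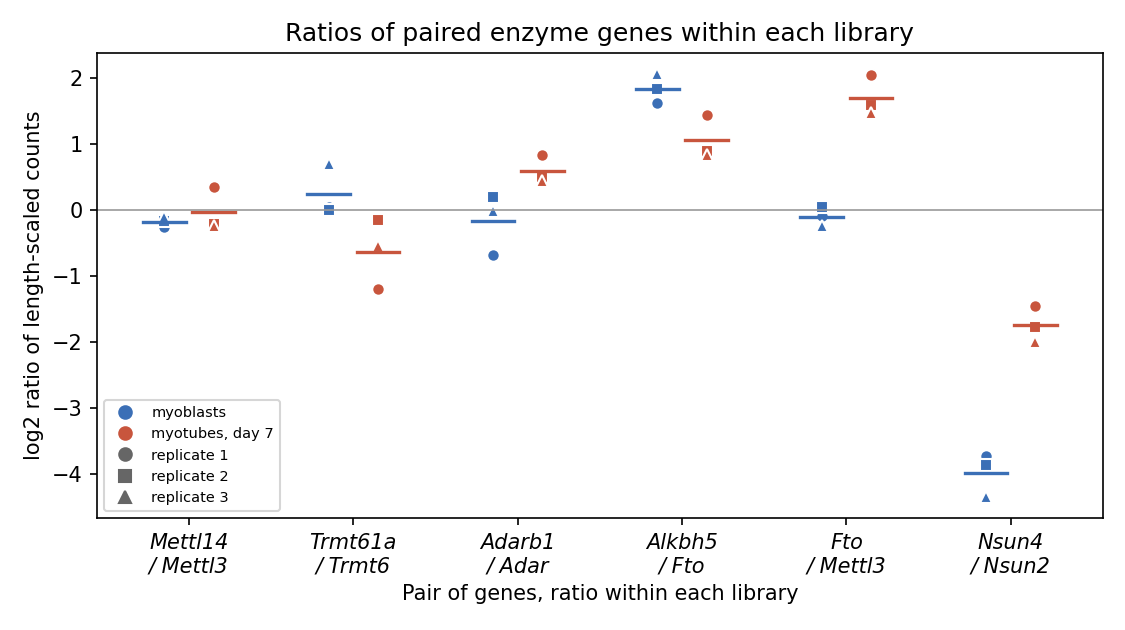
Log2 ratio of length-scaled counts for 6 pairs of enzyme genes within each library (blue, myoblasts; red, myotubes; bars, group means; marker shape, replicate). Groups overlap for Mettl14 to Mettl3 and are apart for the other pairs; the pairs Fto to Mettl3 and Nsun4 to Nsun2 were chosen after their values were seen.

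Of 89 further RNA modification genes, also listed with earlier results of these data known, 87 were tested. Of these, 32 were lower (36.8%) and 4 higher (4.6%) in myotubes, beside 19.6% and 20.5% of all tested genes. The number lower was 20 without myoblast replicate 3 and 20 without myotube replicate 3, with 13.1% of all tested genes called lower in each. The number higher was 2 without myoblast replicate 2, myotube replicate 2 or myotube replicate 3. In those fits 2430 of 16469, 2623 of 16367 and 2437 of 16594 tested genes were called higher. Thumpd1, called lower, stands in the lists for ribosomal and for transfer RNA and is counted once in the total. For ribosomal RNA, 6 of 13 fell, among them Dkc1, the guide-dependent pseudouridine synthase dyskerin (log2 fold change -2.53 ± 0.36, adjusted p = 0.00136), and Fbl, the guide-dependent ribose methyltransferase fibrillarin (-2.06 ± 0.27, adjusted p = 0.000856). Ftsj3, a ribose methyltransferase factor, fell too (-1.10 ± 0.36, adjusted p = 0.0414, lost without any 1 myoblast library, without myotube replicate 3 or under the minimum mean count, adjusted p at most 0.123). For transfer RNA, 21 of 55 fell and 3 rose. Wdr4, the partner of Mettl1, changed by -1.44 ± 0.24 (adjusted p = 0.00247), and Qtrt1 and Qtrt2, the subunits of the enzyme that inserts queuine, by -1.29 ± 0.21 and -1.30 ± 0.33 (adjusted p = 0.00218 and 0.0166; Qtrt2 lost without myoblast replicate 3, 0.0558). The 3 that rose were Trmu, which thiolates mitochondrial transfer RNAs (0.93 ± 0.23), Trit1, which isopentenylates cytosolic and mitochondrial transfer RNAs (0.77 ± 0.19), and Trmt2b, a mitochondrial uridine methyltransferase (0.75 ± 0.22). Leaving out single libraries ended each call. The highest adjusted p was 0.0583 for Trmu (without myotube replicate 2; also lost without 3), 0.0695 for Trit1 (without myotube replicate 3; also without 2 or myoblast replicate 2) and 0.0894 for Trmt2b (without myoblast replicate 3; also without 1 or 2), and Trmt2b was lost with library size alone (0.0564).

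Of all tested genes, 19.6% were called lower and 20.5% higher. Of 13 other genes of m6A and its readers, 4 fell (30.8%) and none rose. They included the paralogous writer-complex subunits Rbm15b (log2 fold change -0.88 ± 0.17, adjusted p = 0.00448) and Rbm15 (-0.75 ± 0.15, adjusted p = 0.00572), and Pcif1, which methylates the adenosine next to the cap (-0.54 ± 0.17, adjusted p = 0.0360, lost in 4 of the 6 fits that left out 1 library and under the minimum mean count, adjusted p at most 0.130). The other subunits of the writer complex in the list were not called. Virma stood at 139.8 ± 1.501 CPM (SD of 3 libraries) before and 129 ± 8.01 CPM after differentiation, a log2 fold change of -0.11 ± 0.15 (adjusted p = 0.570). Zc3h13 was at 55.4 ± 10.4 and 51.8 ± 13.1 CPM (-0.10 ± 0.24, adjusted p = 0.758). Cbll1 was at 11.4 ± 3.23 and 9.50 ± 2.18 CPM (-0.27 ± 0.28, adjusted p = 0.474). The readers Ythdf1, Ythdf2, Ythdf3, Ythdc1 and Ythdc2 were not called. Of 7 tested genes for the cap and other small RNA modifications, 28.6% fell and 14.3% rose, beside the same 19.6% and 20.5%. Larp7 (-1.28 ± 0.16, adjusted p = 0.0008) and Mepce (-0.69 ± 0.16, adjusted p = 0.0101, lost without myotube replicate 3, 0.0527), both partners of the 7SK RNA, fell. Mettl7a1, a methyltransferase-like gene, rose (1.502 ± 0.31, adjusted p = 0.00636), and whether it acts on RNA was not tested.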

How the data were processed

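The authors deposited raw counts per gene for the 6 C2C12 libraries, with GENCODE identifiers, symbols and lengths (per the file headers and the whole-number values). Gene length, another deposited quantity, is in bases and was used to scale levels. The submitters' processing notes name, for the series and with no role or order, bcl2fastq, mm10, featureCounts 1.5.1, STAR 2.5.1b, DESeq2 1.18.1 and Salmon 0.12.0.

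Counts of all genes were tested with edgeR 4.0.16 in R 4.3.3, using TMM scaling, filterByExpr by group and the quasi-likelihood test with robust fitting. P-values were adjusted over 15932 genes by Benjamini-Hochberg, at a threshold of 0.05. Every adjusted p is from this test unless another tool is named, and SE is the size of the log2 fold change over the root of F. CPM and RPKM used TMM-scaled library sizes. Alternatives were RLE scaling, library size alone, DESeq2 1.42.0, no filter or a minimum mean count of 50, the replicate number as a block, and each library left out. Replicates differed beyond sampling noise in every pair (chi-square per degree of freedom from 105.7 up).

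Samples with the same replicate number, a number given by the labels without its meaning, deviated together from their group means (correlations 0.239, 0.167 and 0.195, each over 0.1). The highest correlation, 0.383, was between myoblast replicate 3 and myotube replicate 2. The members and lists were chosen with earlier results of these data known. All 37 members are named, with Dkc1, Fbl and, from each other list, up to 3 called genes per direction with the largest changes, where the mean log2 CPM reached 2. The other genes named were picked after their values were seen. A planned ratio of Adat3 to Adat2 gave no value, so 4 ratios were adjusted together. The fit was tested on simulated data.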

Additional observations from a re-analysis of the deposited data

How the results depend on the processing

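Over 12 other settings no called member changed direction. Of the 23 called members, 11 kept their call in all 12, and 4 members not called (Rpusd2, Trmt5, Wtap and Adar) were called lower in at least 1. Leaving out 1 library at a time gave 9 to 21 members lower and 2 higher each time, with 4557 to 6953 of all genes called, against 6386; the other RNA modification genes called lower ranged from 20 to 32 and those called higher from 2 to 4. The median log2 fold change of the members ranged from -0.88 to -0.66. The other scalings, filters, DESeq2 and the block gave 18 to 25 members lower and 2 higher. In those fits, from 10.4% (no filter) to 23.1% (library size alone) of all tested genes were called lower. With library size alone the median of all genes moved by -0.124 on the log2 scale and 25 members were lower; 42.1% of all calls were then higher, against 51.1%. With the replicate block 23 members were lower, Rpusd2 and Adar being added, and it changed no other member's call. Signs turned only among values not called: Pus3 was at -0.0061 without myoblast replicate 2 (up to 0.30 without another library), Adarb1 at -0.013 without myotube replicate 1 (up to 0.35), and the log2 ratio of Mettl14 to Mettl3, 0.14 in all libraries, at -0.049 without myotube replicate 1 (up to 0.25). The difference in log2 ratio ranged from -1.12 to -0.60 for Trmt61a to Trmt6, from 0.50 to 0.94 for Adarb1 to Adar and from -0.97 to -0.67 for Alkbh5 to Fto when 1 library was left out. An exact sign-flip permutation test of same-numbered differences, the replicate block for ratios, gave p = 0.25, the smallest it can give, for these 3 and p = 1 for Mettl14 to Mettl3. The cause of the lost calls was not tested. With 3 libraries a group, and 54 to 118 counts of Adat2 in a myotube library, changes of the lowest members are the least precise.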

Other observations

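The wobble uridine of many transfer RNAs is modified by the Elongator complex and then thiolated by Ctu1 and Ctu2 with sulfur carried by Urm1. Of these 9 genes, put together after their values were seen and so given as a description, 6 were called lower and 3 were not called (median log2 fold change -0.69), beside 19.6% of all tested genes called lower. The number lower was 4 to 6 when 1 library was left out. It was lowest without myoblast replicate 3, where 13.1% of all tested genes were called lower. Elp6 was at 13.1 ± 0.147 CPM in myoblasts and 6.06 ± 0.481 CPM in myotubes (SD, n = 3), Ctu1 at 10.4 ± 2.04 and 4.97 ± 0.620 CPM, and Ctu2 at 21.1 ± 2.10 and 10.1 ± 2.52 CPM. The catalytic Elongator subunit gene Elp3 was not called, at 76.0 ± 13.7 and 62.2 ± 5.83 CPM.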
